A study of Bos taurus with 30 samples.

Results

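The 33 genes described here encode enzymes of cholesterol and fatty acid synthesis and the proteins that control them. They were chosen by name from textbook knowledge of the pathway, but with earlier results of these data known. All 33 were found among the 27607 genes of the bovine count tables. By role, 7 act in the mevalonate steps, 11 in the sterol steps and 5 in regulation and sterol transport. A further 3 supply acetyl-CoA and NADPH, and 7 build, elongate or desaturate fatty acids.

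The study grew primary bovine endometrial cells in a microfluidic device, with epithelial cells in the upper chamber and stromal cells in the lower chamber on either side of a porous membrane. The cells were isolated from uteri of nonpregnant cows early in the luteal phase, were enriched and not sorted to purity, and were kept under flow for 72 hours. In the glucose experiment the medium held 5 or 50 mM glucose. In the insulin experiment it held 5 mM glucose in all groups, with vehicle or with 1 or 10 ng/mL insulin. Each of the 10 groups (a cell type in a medium) held 3 biological replicates, which gave 30 libraries. Whether a replicate number stands for a cow is not stated in the sources used here. The main fits compared libraries within a replicate number. Their p-values therefore measure how far the difference between groups varied over these replicates.

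In animal cells acetyl-CoA is the starting point of both routes. The mevalonate steps join acetyl-CoA units into isoprenoid units and the sterol steps close and trim squalene into cholesterol, whereas fatty acid synthase builds palmitate from malonyl-CoA. The transcription factors encoded by SREBF2 and SREBF1 raise transcription of most genes of these routes when membrane sterols are low, and insulin is known to raise SREBF1 in liver and fat. In the uterus the endometrial epithelium forms lipid droplets and secretes lipids into the luminal fluid.

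Levels are given as CPM, the count scaled to the same library total for all libraries, and are compared for a gene between libraries but not between genes, since gene length was not taken into account. A library held 8826470 to 16647701 counted reads. Every member had at least 12 reads in every library, so a count of 0, which allows up to 3 reads (0.180 to 0.340 CPM, for counting error only), did not occur. The cell type labels were checked against 12 epithelial and 12 stromal marker genes. The epithelial markers summed to 6882 to 14552 CPM in epithelial libraries, with none at 0, and to 1.36 to 4677 CPM in stromal libraries, with up to 6 of 12 at 0. The stromal markers summed to 20078 to 81695 CPM in stromal libraries and to 1020 to 6355 CPM in epithelial libraries. A pair of libraries stood apart. Replicate 3 of the stromal cells at 50 mM glucose had an epithelial marker sum of 53.7% of the mean over the epithelial libraries of the glucose experiment and the lowest stromal marker sum among the stromal libraries. The epithelial library of replicate 2 at 5 mM glucose had the highest epithelial marker sum, 14552 CPM.

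The first comparison asked where in the model the pathway was expressed. The members together took 0.522 to 0.944% of the counts of an epithelial library and 0.173 to 0.483% of those of a stromal library. In the insulin experiment the ranges were 0.522 to 0.716% in epithelial and 0.173 to 0.201% in stromal libraries. In each medium the 3 epithelial libraries lay above the 3 stromal libraries. In the bulk libraries, fewer cells of a kind and less RNA per cell cannot be told apart.

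Most members were higher in epithelial cells. In the vehicle group of the insulin experiment, 27 of 33 members were called higher and 1 was called lower in epithelial than in stromal cells, where called means an adjusted p-value under 0.05 (quasi-likelihood test of edgeR, Benjamini-Hochberg adjustment over all genes tested) and a log2 fold change beyond 0.1. Of all 13395 genes tested there, 55.2% were called, 27.8% higher and 27.3% lower. The median log2 fold change was 1.41 over the members and 0.003 over all genes tested. At 1 ng/mL insulin, 28 members were called higher and 2 lower (29.6 and 29.3% of all genes, 58.9% together), with a member median of 1.52. At 10 ng/mL, 28 were called higher and 1 lower (27.1 and 27.3% of all genes, 54.4% together), with a median of 1.56. In the glucose experiment, 10 members were called higher and none lower at 5 mM (10.5 and 10.6% of all genes, 21.1% together), and 21 were called higher and none lower at 50 mM (6.39 and 10.9% of all genes, 17.3% together), with medians of 1.18 and 0.98. Over the 5 comparisons of cell types, 25 members were higher in epithelial cells in all 15 pairs of libraries with the same medium and replicate number, and 9 were called higher in all 5 comparisons. These 9 were ACSS2, FASN, FDFT1, IDI1, LSS, MVD, MVK, PMVK and TM7SF2. The shares of all genes with the same patterns over the 5 comparisons were not computed, so these 2 counts stand without a reference. The 15 pairs use the same 3 replicate numbers in each medium, and same-numbered libraries tended to deviate together. They are therefore not 15 independent observations.

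The number of calls in the glucose experiment depended on single replicates and on the fit. At 5 mM, 18 members were called higher without replicate 2, which holds the epithelial library that stood apart (11.6% of all genes in that fit), and 6 without replicate 3 (8.15%). The count at 5 mM was also 16 without the replicate block (21.7% of all genes called), 19 with library totals alone (22.2%), 22 with DESeq2 (27.7%) and 25 in 1 fit of all libraries of the experiment (37.8%). At 50 mM, 24 were called without replicate 3, which holds the stromal library that stood apart (27.8% of all genes), 11 without replicate 2 (14.4%) and 12 without the block (7.83%). Without replicate 1 no member and no gene was called at 50 mM by edgeR's quasi-likelihood test, and 23 members had an unadjusted p under 0.05 (18.0% of 14019 genes). With a replicate left out, the member median stayed between 0.89 and 1.25.

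**Figure D1:**
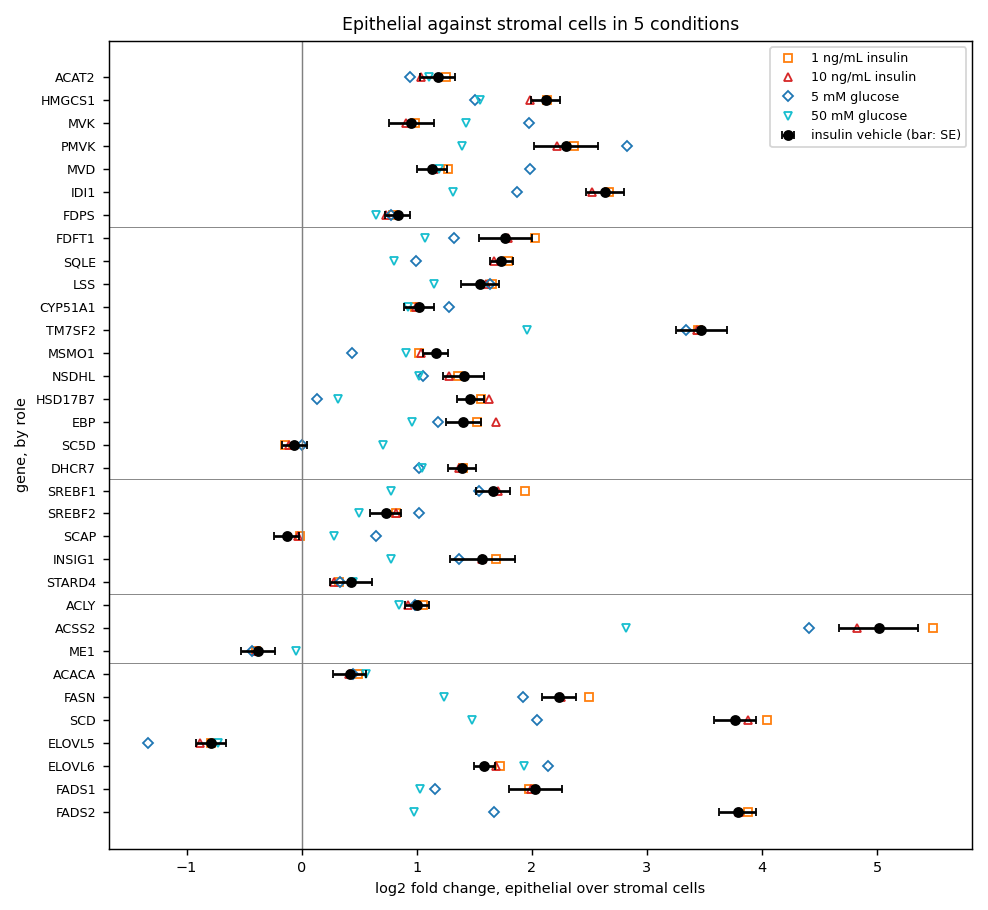
Log2 fold changes of the 33 members between epithelial and stromal cells in each of the 5 media, with positive values higher in epithelial cells. Black points with bars of 1 standard error are the vehicle group and open coloured symbols the other media, with the members grouped by role. ACSS2 lies farthest to the right in all media and ELOVL5 below 0 in all of them.

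The mevalonate steps were higher in epithelial cells throughout. All 7 members were called in each of the 3 insulin media, 6 at 50 mM and 4 at 5 mM glucose. Of all genes, 27.1 to 29.6% were called higher in the insulin media, 6.39% at 50 mM and 10.5% at 5 mM. HMGCS1 (ENSBTAG00000011839), which makes HMG-CoA, had 313, 297 and 397 CPM in the 3 epithelial vehicle libraries and 74.0, 74.0 and 70.0 CPM in the stromal ones. The groups did not overlap, and the log2 fold change was 2.12 (standard error 0.129, adjusted p = 0.000978). IDI1 (ENSBTAG00000004075), which converts isopentenyl diphosphate to its isomer, had 101, 83.0 and 112 CPM in epithelial and 17.7, 15.4 and 12.0 CPM in stromal vehicle libraries. Its fold, 6.21, was the largest of the mevalonate group in that medium. PMVK, the phosphomevalonate kinase, was 4.91-fold higher, and the members with the smallest differences were MVK (1.94-fold) and FDPS (1.78-fold), the mevalonate kinase and the farnesyl diphosphate synthase. FDPS was not called in the glucose experiment (adjusted p = 0.126 at 5 mM and 0.0555 at 50 mM), although it was higher in epithelial cells in all 15 pairs.

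Of the 11 sterol genes, 10 were called higher in epithelial cells in each insulin medium, where 27.1 to 29.6% of all genes were. TM7SF2 (ENSBTAG00000005069), a sterol reductase of the late steps, had 40.6, 31.0 and 51.3 CPM in epithelial and 4.11, 3.44 and 2.71 CPM in stromal vehicle libraries, a fold of 11.1 (log2 fold change 3.47, standard error 0.222, adjusted p = 0.00105). SQLE (ENSBTAG00000005498), the squalene epoxidase, had 216, 199 and 215 CPM against 64.2, 58.0 and 57.1 CPM, which gave 3.33-fold. FDFT1, which makes squalene, was 3.41-fold higher and LSS, which closes the ring of lanosterol, 2.93-fold higher. The remaining called members of the group, CYP51A1, MSMO1, NSDHL, HSD17B7, EBP and DHCR7, lay between 2.02-fold (CYP51A1) and 2.76-fold (HSD17B7). HSD17B7 was called in only 3 of the 5 comparisons of cell types, with log2 ratios of 0.40, -0.05 and 0.04 in the 5 mM glucose pairs. MSMO1 was lower in epithelial cells in the pair of replicate 2 at 5 mM (-1.77), which holds the epithelial library that stood apart.

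SC5D (ENSBTAG00000019246), the lathosterol desaturase of the late sterol steps, was the exception in the insulin media. Its level was 91.1, 131 and 136 CPM in epithelial and 104, 112 and 134 CPM in stromal vehicle libraries. The ranges overlapped, and the log2 fold change was -0.06 (standard error 0.108, adjusted p = 0.644). It was also uncalled at 1 and 10 ng/mL insulin, with -0.14 and -0.11. In the glucose experiment it had 172, 173 and 144 CPM in epithelial and 94.2, 81.5 and 93.1 CPM in stromal libraries at 50 mM, where it was called (1.63-fold, adjusted p = 0.045). At 5 mM the epithelial values were 158, 37.2 and 155 CPM, with the low value in the library that stood apart, against 85.8, 80.4 and 86.9 CPM.

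Among the regulators the transcription factors and INSIG1 were called higher in epithelial cells in the 3 insulin media, and SCAP and STARD4 were called in none of the 5 comparisons. In the glucose experiment only SREBF1 at 50 mM was called (adjusted p = 0.0297), and SREBF1 at 5 mM had an adjusted p of 0.0508. SREBF2 (adjusted p = 0.109 and 0.122 at 5 and 50 mM) and INSIG1 (0.172 and 0.152) were not called there, and INSIG1 was higher in 14 of 15 pairs, lower in a pair at 5 mM. SREBF1 (ENSBTAG00000007884) had 154, 186 and 181 CPM in epithelial and 63.4, 45.0 and 48.5 CPM in stromal vehicle libraries, or 3.16-fold (log2 fold change 1.66, standard error 0.151, adjusted p = 0.00177). SREBF2 was 1.66-fold higher in that medium, with 193, 204 and 232 CPM against 149, 103 and 112 CPM. INSIG1 (ENSBTAG00000001592), which holds the SREBP precursors in the endoplasmic reticulum when sterols are high, had 77.5, 122 and 93.8 CPM against 42.2, 23.3 and 29.0 CPM (2.97-fold, adjusted p = 0.00932). SCAP, the escort protein of the SREBP precursors, had 89.9, 82.7 and 77.2 CPM in epithelial and 91.1, 85.7 and 82.0 CPM in stromal vehicle libraries, with a log2 fold change of -0.13 (standard error 0.106). STARD4, a cytosolic sterol carrier, had 6.59, 7.96 and 16.5 CPM against 5.95, 5.79 and 8.88 CPM (0.43, standard error 0.184). The ranges of both genes overlapped between the cell types.

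The widest difference of all members was that of a single gene of acetyl-CoA supply. ACSS2 (ENSBTAG00000013303), which makes acetyl-CoA from acetate in the cytosol and nucleus, had 83.8, 103 and 109 CPM in epithelial vehicle libraries and 3.24, 4.25 and 1.30 CPM in stromal ones. The log2 fold change was 5.01 (standard error 0.343, adjusted p = 0.00111), or 32.3-fold. Over the 5 media its fold ran from 7.03 at 50 mM glucose to 44.8 at 1 ng/mL insulin. At 50 mM the log2 ratios in the pairs of replicates 1, 2 and 3 were 3.01, 4.08 and 1.34. The epithelial marker sum in the stromal libraries was 13.5, 10.8 and 53.7% of the epithelial mean at 50 mM glucose. At 1 ng/mL insulin it was 0.083, 0.018 and 0.086%. The part of epithelial RNA in the range of the ACSS2 fold was not tested. ACLY, which makes acetyl-CoA from citrate, was 2.00-fold higher in epithelial vehicle libraries, with 213, 263 and 276 CPM against 118, 124 and 112 CPM. ME1 (ENSBTAG00000005681), the cytosolic malic enzyme that yields NADPH, had the opposite sign. Its levels were 110, 139 and 90.0 CPM in epithelial and 121, 165 and 128 CPM in stromal vehicle libraries, and it was lower in 12 of 15 pairs but called only at 1 ng/mL insulin (log2 fold change -0.39, standard error 0.101, adjusted p = 0.0183). That call was lost without replicate 2 or 3 (adjusted p = 0.0805 and 0.0933), without the replicate block (0.0854) and with library totals alone (0.0503).

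Of the fatty acid genes, FASN (ENSBTAG00000015980), the fatty acid synthase, had 884, 1091 and 1259 CPM in epithelial and 212, 237 and 196 CPM in stromal vehicle libraries. Its log2 fold change was 2.24 (standard error 0.148, adjusted p = 0.00107), or 4.71-fold. ACACA, the acetyl-CoA carboxylase that feeds it, differed far less, with 68.5, 91.3 and 104 CPM against 67.6, 53.8 and 63.9 CPM. ACACA was higher in all 15 pairs, with fitted folds of 1.33 to 1.47 over the 5 comparisons, and was called only at 1 and 10 ng/mL insulin. ELOVL6, which elongates palmitate, was 3.01-fold higher and FADS1, the delta-5 desaturase, 4.09-fold higher in epithelial vehicle libraries.

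SCD and FADS2 followed ACSS2 in size in the insulin experiment. SCD (ENSBTAG00000055207), the stearoyl-CoA desaturase, had 1184, 1635 and 1655 CPM in epithelial and 116, 97.7 and 95.8 CPM in stromal vehicle libraries, or 13.6-fold (log2 fold change 3.77, standard error 0.183, adjusted p = 0.000899). FADS2 (ENSBTAG00000015505), the delta-6 desaturase, had 221, 304 and 245 CPM against 15.9, 17.2 and 19.4 CPM, or 13.8-fold. In the glucose experiment, whose stromal libraries at 5 mM held 334, 262 and 395 CPM of SCD and 120, 42.6 and 131 CPM of FADS2, the folds at 5 mM were 4.13 for SCD (adjusted p = 0.0119) and 3.18 for FADS2 (adjusted p = 0.116). Stromal cells in the vehicle group of the insulin experiment also had 5 mM glucose, but the experiments were separate and the difference between them was not tested. The epithelial marker sum in these 5 mM stromal libraries was 5.90, 3.73 and 0.869% of the epithelial mean. The part of epithelial RNA in these stromal levels was not tested.

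ELOVL5 (ENSBTAG00000003359), which elongates polyunsaturated fatty acids, was lower in epithelial cells in all 15 pairs. Its vehicle levels were 81.4, 64.5 and 88.7 CPM in epithelial and 148, 123 and 112 CPM in stromal libraries, which did not overlap. The stromal level was 1.73-fold that of the epithelial cells (log2 fold change -0.79, standard error 0.132, adjusted p = 0.0078), and 1.72-fold and 1.84-fold at 1 and 10 ng/mL insulin, where it was called as well. The call in the vehicle group was lost without replicate 1 (adjusted p = 0.0511). In the glucose experiment the difference was -1.34 at 5 mM and -0.73 at 50 mM on the log2 scale and was not called (adjusted p = 0.134 and 0.0702). FADS1 and FADS2, which act in the same polyunsaturated route, had the opposite sign.

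A list of 23 further genes of lipid synthesis and its control was read in the same way. In the vehicle group 8 were called higher and 5 lower in epithelial cells, or 56.5% of the list, close to the 55.2% of all genes called. SCD5 (ENSBTAG00000022449), the second stearoyl-CoA desaturase of cattle, ran against SCD. It had 14.9, 12.6 and 18.1 CPM in stromal vehicle libraries and 0.392, 0 and 1.13 CPM (5, 0 and 12 reads) in epithelial ones. It was called lower in epithelial cells in all 5 comparisons, with adjusted p-values from 0.000493 to 0.00581, and it was lower in all 15 pairs. Stromal replicate 3 at 50 mM glucose, which had the highest epithelial marker sum of the stromal libraries, had the lowest SCD5 level among them, 4.21 CPM, and the highest SCD level, 1414 CPM. LPIN1, a phosphatidate phosphatase, was 9.14-fold higher and AACS, which activates acetoacetate in the cytosol, 2.84-fold higher in epithelial vehicle libraries. PRKAA2, a catalytic subunit of the AMP-activated kinase, had 8.55, 9.30 and 11.5 CPM in epithelial and 0, 0.543 and 0.108 CPM in stromal vehicle libraries. SLC25A1, the mitochondrial citrate carrier, was 2.09-fold higher and TMEM97, a sterol-regulated membrane protein, 2.23-fold higher. GPAM, which starts glycerolipid synthesis, was lower in epithelial cells by a log2 fold change of -1.15 (standard error 0.237), a call that was lost without replicate 1 or 3 (adjusted p = 0.0782 and 0.0646). INSIG2, the paralogue of INSIG1, was lower as well, at -0.64 on the log2 scale (standard error 0.120).

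**Figure D2:**
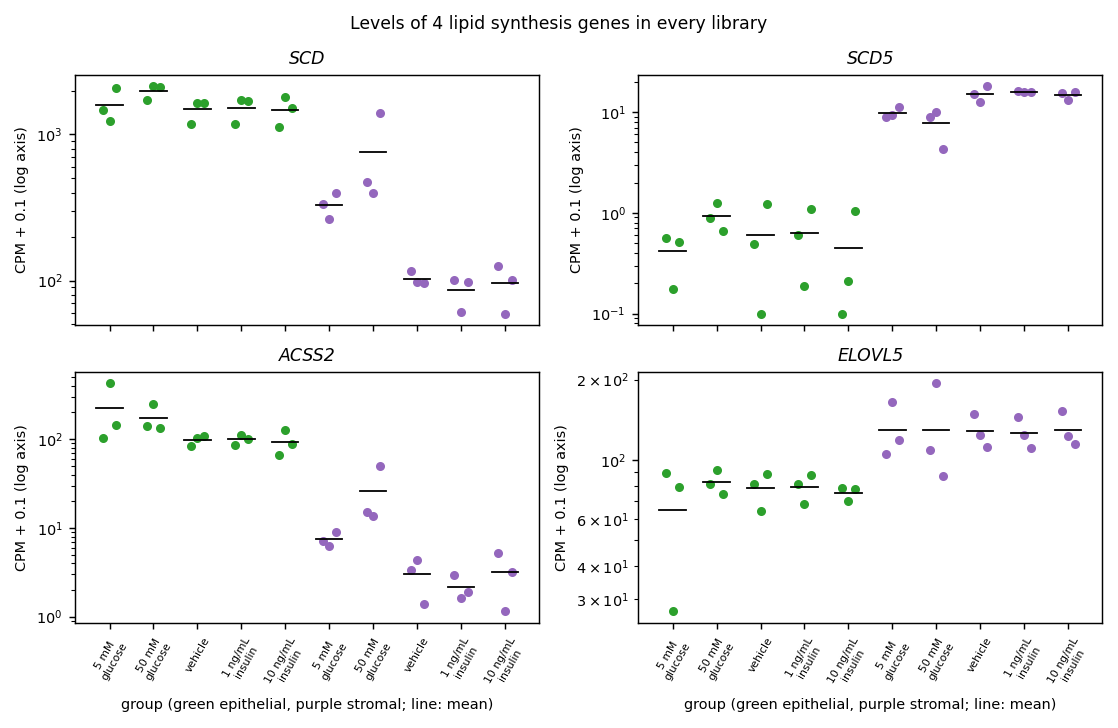
Levels of SCD, SCD5, ACSS2 and ELOVL5 in all 30 libraries as CPM + 0.1 on a log axis, by cell type (green epithelial, purple stromal) and medium, with a point for each library and a line at the group mean. SCD and ACSS2 are high in epithelial and low in stromal libraries, SCD5 and ELOVL5 the reverse, and stromal replicate 3 at 50 mM glucose lies closest to the epithelial ones for SCD and ACSS2.

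The glucose comparison asked whether 50 mM changed these genes within a cell type. In stromal cells 0 of 33 members were called (0.0% of 13644 genes tested by edgeR's quasi-likelihood test), and 5 members had an unadjusted p under 0.05, all higher at 50 mM. Over all genes 4.87% had such a p, 3.64% higher. DESeq2 called 1 member, ACSS2, and 1.3% of all genes. The median log2 fold change of the members was 0.27, against -0.03 over all genes, and 28 of 33 were above 0. In the pairs of replicates 1, 2 and 3, 19, 29 and 25 members were higher at 50 mM, where 51.7, 58.0 and 44.1% of all genes were.

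The epithelial marker sum moved with this result. It was 5.90, 3.73 and 0.869% of the epithelial mean in the stromal libraries at 5 mM and 13.5, 10.8 and 53.7% at 50 mM, so that it was higher at 50 mM in all 3 pairs. The 12 epithelial markers had a median log2 fold change of 4.75 in the comparison, and none was called. Without replicate 3 the member median was 0.16, with 27 of 33 above 0 and 9 at an unadjusted p under 0.05 (7.77% of 13719 genes). In the pairs of replicates 1 and 2, 51.7 and 58.0% of all genes were higher at 50 mM. The part of epithelial RNA in the difference was not tested.

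The 5 members were ACSS2, TM7SF2, SCD, HMGCS1 and MSMO1, each higher in 3 of 3 pairs. ACSS2 had 7.04, 6.22 and 8.91 CPM at 5 mM and 14.8, 13.4 and 50.1 CPM at 50 mM. All 50 mM libraries lay above all 5 mM libraries, and the log2 fold change was 1.50 (standard error 0.329, adjusted p = 0.696). It was 1.06 without replicate 3. SCD had 334, 262 and 395 CPM at 5 mM and 474, 397 and 1414 CPM at 50 mM (0.91, standard error 0.300), with 0.52 without replicate 3. TM7SF2 went from 3.19, 2.20 and 1.65 CPM to 4.69, 4.30 and 11.7 CPM (1.37, standard error 0.502). HMGCS1 had 83.4, 165 and 106 CPM at 5 mM and 113, 209 and 232 CPM at 50 mM (0.57, standard error 0.182), and these ranges overlapped, as did those of MSMO1 (0.51, standard error 0.128). In all, 4 members, ACSS2, IDI1, SCD and TM7SF2, did not overlap between the concentrations, all higher at 50 mM, where 4.73% of all genes lay wholly higher.

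FASN and SREBF1 did not pass. FASN had 343, 409 and 324 CPM at 5 mM and 376, 477 and 663 CPM at 50 mM (0.40, standard error 0.206, adjusted p = 0.696), and SREBF1 had 95.2, 67.6 and 62.7 against 91.3, 85.6 and 106 CPM (0.28, standard error 0.159). SQLE was at 0.31 (standard error 0.140). INSIG1 was at 0.39 (standard error 0.353) with all 3 pairs, but at -0.08 without replicate 3.

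**Figure D3:**
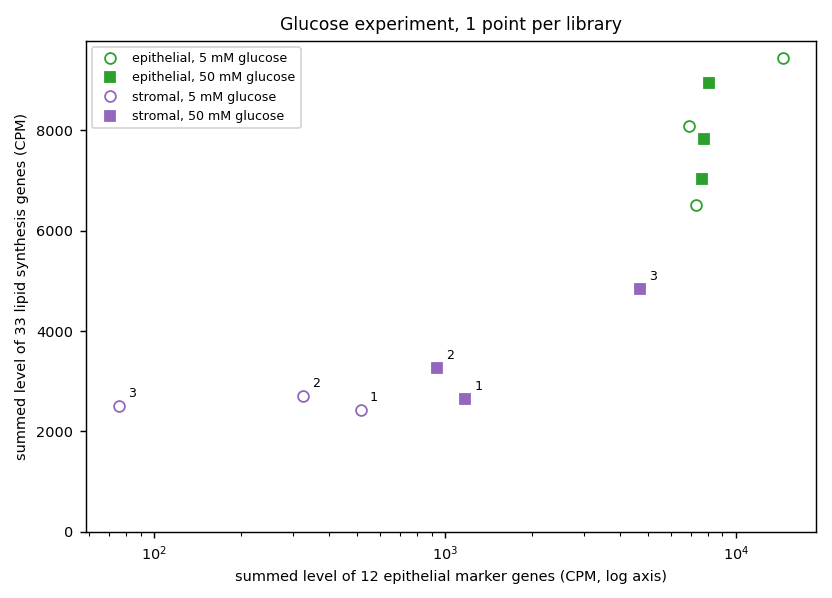
The summed level of the members against the summed level of the 12 epithelial markers, in CPM with a log axis for the markers, for the 12 libraries of the glucose experiment (open symbols 5 mM, filled symbols 50 mM, stromal points numbered by replicate). Among the stromal libraries the one of replicate 3 at 50 mM glucose is highest on both axes, at 4677 CPM of markers and 4830 CPM of members.

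In epithelial cells 0 of 33 members were called between the glucose concentrations, and 0 had an unadjusted p under 0.05 (edgeR's quasi-likelihood test, 0.0% of 13713 genes called and 1.55% at an unadjusted p under 0.05). DESeq2 called 0, with 1 at an unadjusted p under 0.05. The median log2 fold change was 0.02, against 0.009 over all genes, with 19 of 33 above 0. In the pairs of replicates 1, 2 and 3, 22, 15 and 9 members were higher at 50 mM, where 53.3, 50.0 and 48.5% of all genes were. The pair of replicate 2 was the widest. In it MSMO1, the sterol methyl oxidase, went from 29.8 to 246 CPM and SC5D from 37.2 to 173 CPM, while MVD, the mevalonate diphosphate decarboxylase, went from 138 to 52.2 CPM and FASN from 2782 to 1466 CPM. In the pairs of replicates 1 and 3 the same genes moved little, with FASN at 1129 and 1222 CPM and at 1247 and 1189 CPM. The coefficient of variation over replicates had a median of 41.6% over the members in the 5 mM epithelial group and 17.1% in the 50 mM group, against 40.2 and 19.6% over all genes with a mean of at least 1 CPM. Only SREBF1 did not overlap between the groups, with 203, 403 and 194 CPM at 5 mM and 187, 173 and 175 CPM at 50 mM. Of all genes, 3.68% lay wholly lower at 50 mM. The log2 fold change of SREBF1 was -0.49 (standard error 0.312, adjusted p = 0.804). Its log2 ratios in the pairs of replicates 1, 2 and 3 were -0.048, -1.29 and -0.15. With 1 replicate left out, the log2 fold change ran from -0.73 to -0.10.

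The difference in glucose response between the cell types was tested as an interaction. No member was called (edgeR's quasi-likelihood test, 0.0% of 14640 genes), and 3 had an unadjusted p under 0.05, ACSS2, PMVK and TM7SF2, all with a smaller response in epithelial than in stromal cells (7.53% of all genes at such a p, 5.74% lower). DESeq2 also called 0, with 3 at an unadjusted p under 0.05. The ACSS2 term was -1.64 on the log2 scale (standard error 0.485, adjusted p = 0.631). Without replicate 3 no member had an unadjusted p under 0.05.

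Insulin gave small and uncalled differences. At 1 ng/mL against vehicle in epithelial cells, 0 members were called (0.0% of 12966 genes by edgeR's quasi-likelihood test, 0 by DESeq2), and SREBF1 and FASN had an unadjusted p under 0.05 (2.95% of all genes, 1.43% higher). FASN had 884, 1091 and 1259 CPM with vehicle and 953, 1165 and 1354 CPM at 1 ng/mL. It was higher in 3 of 3 pairs by 0.10 on the log2 scale (standard error 0.0423), and SREBF1, with 154, 186 and 181 against 163, 205 and 195 CPM, by 0.10 (standard error 0.0466). The adjusted p was 0.9996 for both, and the ranges of the groups overlapped.

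At 10 ng/mL against vehicle in epithelial cells the members moved together within each pair, but not in the same direction across pairs. In the pair of replicate 1, 28 of 33 were lower at 10 ng/mL, in that of replicate 2, 30 were higher, and in that of replicate 3, 30 were lower. Of all genes 53.2, 49.9 and 52.2% were lower in these pairs. HMGCS1 showed the pattern, with 313, 297 and 397 CPM with vehicle and 251, 356 and 347 CPM at 10 ng/mL. The median log2 fold change of the members was -0.05, against -0.004 over all genes, with 5 of 33 above 0. None was called (0.124% of 12853 genes by edgeR's quasi-likelihood test, 0 members by DESeq2), and ACAT2 and IDI1, both lower, had an unadjusted p under 0.05 (6.96% of all genes, 3.7% lower). Without replicate 2 the median was -0.13 and 7 members were called lower, where 78 of 13193 genes were called, namely ACAT2, HMGCS1, IDI1, MSMO1, NSDHL, ACLY and ACSS2. Without replicate 3 the median was 0.01 and none was called.

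**Figure D4:**
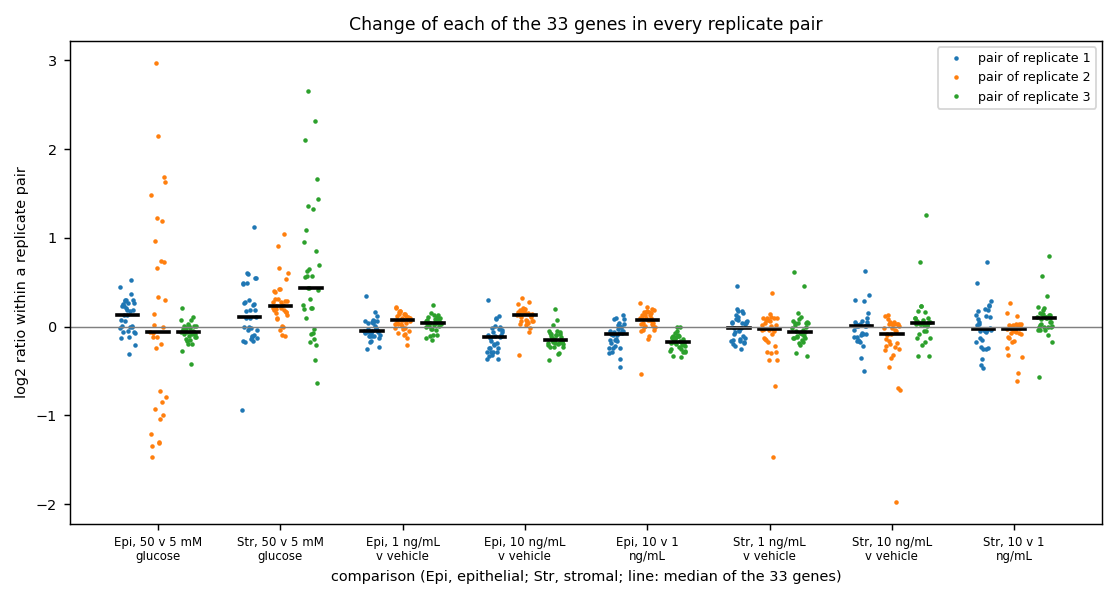
Log2 ratios of the members in each pair of libraries with the same replicate number, for the glucose and insulin comparisons within a cell type, with a point for each gene and a line at the median. At 10 ng/mL insulin in epithelial cells the pairs of replicates 1 and 3 lie mostly below 0 and the pair of replicate 2 mostly above it.

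The comparison of 10 with 1 ng/mL in epithelial cells used the same 10 ng/mL libraries. In it 33 of 33 members were lower at 10 ng/mL in the pair of replicate 3, 24 in that of replicate 1 and 8 in that of replicate 2. None was called (0.0% of 12873 genes by edgeR's quasi-likelihood test, 0 by DESeq2), and SREBF1 alone had an unadjusted p under 0.05 (4.44% of all genes, 2.27% lower), with -0.12 (standard error 0.0471) and lower in 3 of 3 pairs. The epithelial 1 ng/mL library of replicate 3 had 7088 CPM of members in all, and the 10 ng/mL library had 6265 CPM.

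In stromal cells at 1 ng/mL against vehicle, 0 members were called (0.0157% of 12711 genes by edgeR's quasi-likelihood test, 0 by DESeq2) and 5 had an unadjusted p under 0.05, all lower at 1 ng/mL (5.16% of all genes, 2.9% lower). FDFT1, INSIG1, SREBF1 and FASN were lower in 3 of 3 pairs, by log2 fold changes of -0.22, -0.18, -0.17 and -0.16, and SCD in 2 of 3. FASN had 212, 237 and 196 CPM with vehicle and 178, 201 and 187 CPM at 1 ng/mL (standard error 0.0534, adjusted p = 0.895). SREBF1 had 63.4, 45.0 and 48.5 CPM against 54.8, 36.1 and 46.2 CPM. Both genes had the opposite sign in epithelial cells, and the interaction was 0.27 for FASN (standard error 0.0813, adjusted p = 0.286) and 0.28 for SREBF1 (standard error 0.0844, adjusted p = 0.266). No member was called in it (0.658% of 13976 genes by edgeR's quasi-likelihood test, 3 members higher at an unadjusted p under 0.05, where 6.78% of all genes and 4.98% higher were, and 0 called by DESeq2). The epithelial marker sum was 8.75, 291 and 4.77 CPM in the stromal vehicle libraries and 6.30, 1.36 and 6.46 CPM at 1 ng/mL, and its part in the stromal values was not tested. Without replicate 3, the pair in which SCD was higher at 1 ng/mL, SCD was called lower (log2 fold change -0.40, standard error 0.0860, adjusted p = 0.00761), where 0.804% of all genes were called. The pairs kept, of replicates 1 and 2, had log2 ratios of -0.13 and -0.67. Since that fit left out the only pair that went the other way, its call is no support for a lower SCD level.

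At 10 ng/mL against vehicle in stromal cells no member was called (0.0% of 12779 genes by edgeR's quasi-likelihood test, 0 by DESeq2) and none had an unadjusted p under 0.05 (2.79% of all genes). The median of the members was -0.03. ACSS2, at a few CPM, was the least steady, with 3.24, 4.25 and 1.30 CPM with vehicle and 5.07, 1.05 and 3.07 CPM at 10 ng/mL, where the epithelial marker sum was 267, 1.49 and 25.5 CPM. EBP, the sterol isomerase, was the only member whose groups did not overlap, with 9.71, 9.23 and 8.78 CPM against 7.72, 8.51 and 7.49 CPM, where 1.62% of all genes lay wholly lower. Between 10 and 1 ng/mL no member was called and none had an unadjusted p under 0.05 (0.0313 and 3.91% of 12772 genes by edgeR's quasi-likelihood test, 0 by DESeq2). The interaction of 10 ng/mL insulin with cell type gave no call and no unadjusted p under 0.05 among the members (0.0 and 4.05% of 13904 genes, 0 called by DESeq2), although ACSS2 was called without replicate 2 (adjusted p = 0.0328, 1.21% of all genes called). The comparisons at both doses shared the vehicle libraries.

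**Figure D5:**
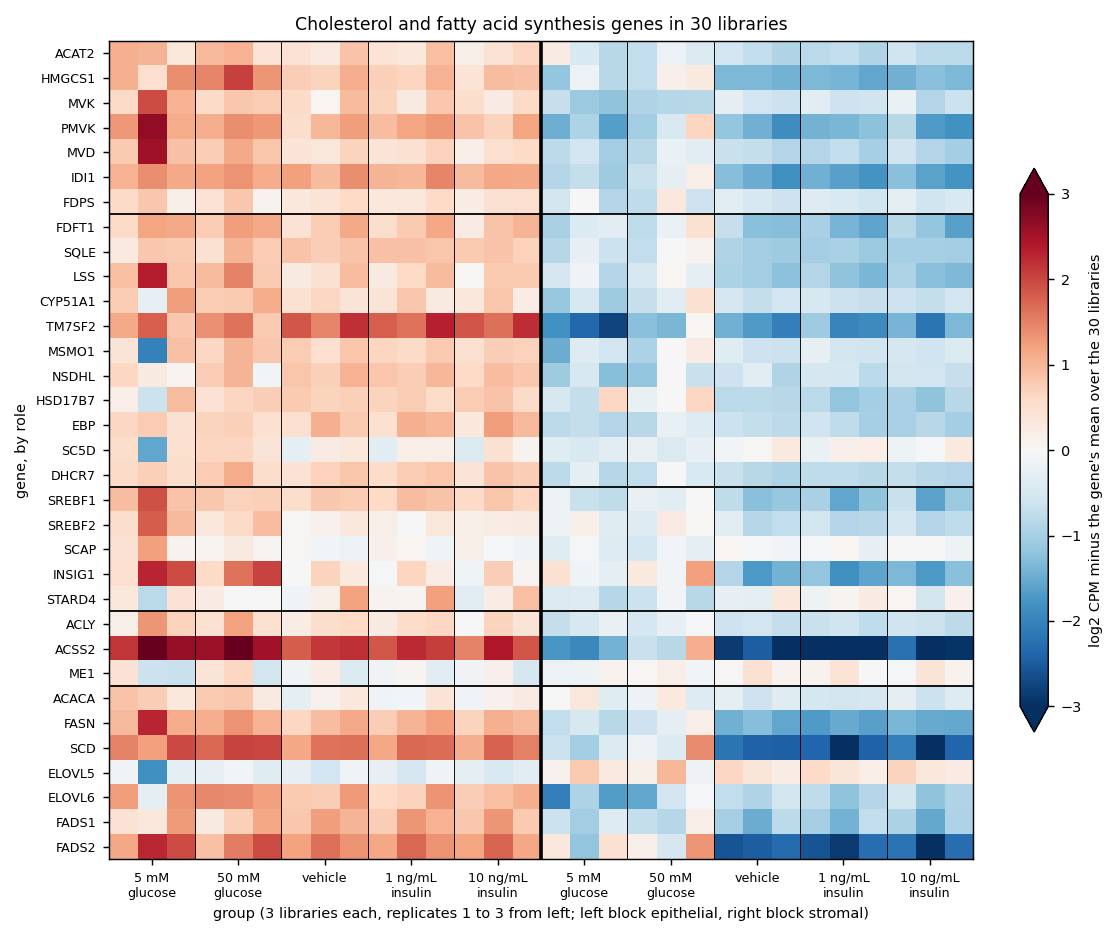
Levels of the 33 members in all 30 libraries, as log2 CPM minus the mean of the gene over the libraries, with the members grouped by role, the epithelial groups on the left and the stromal groups on the right. The epithelial libraries are higher for most rows, ELOVL5 is the reverse, and the doses within a cell type differ little beside the difference between cell types.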

How the data were processed

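Per the file headers and the study's methods, the deposited values are raw counts per gene that the authors made with featureCounts from uniquely mapped, stranded, 75-base single-end reads (annotation of Ensembl release 96, aligner Rsubread). They trimmed the reads with cutadapt and checked them with FastQC. The authors' own comparison tables served only to pair gene identifiers with names.

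Counts were fitted in edgeR 4.0.16 (R 4.3.3) with TMM scaling, filterByExpr, the replicate number as a block and the quasi-likelihood test on the 6 libraries of each comparison, or on 12 libraries for interactions. All 33 members passed the filter in every comparison. The scripts were tested on simulated data. The block was kept because the study's methods state a paired design. In a check, same-numbered libraries deviated together (correlation over 0.1) in 23 of 24 pairs of treatment comparisons, from 0.0233 to 0.818. In cell type comparisons they did so in 13 of 15 pairs, with lower correlations at the top of the range, from 0.0374 to 0.517. DESeq2 1.42.0 and other settings were alternatives.

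Members and lists were chosen with earlier results of these data known. Genes named were HMGCS1, SQLE, INSIG1, SREBF1, FASN and SCD, those of largest or opposite change among the called ones, and, within a cell type, those at an unadjusted p under 0.05 with all pairs in 1 direction. Other members are named to describe each role and were chosen after their values were seen. Of the further markers, 4 endothelial, 2 leukocyte and 3 adipocyte genes were matched, and their summed levels were at most 76.9, 16.3 and 4.23 CPM in a library. No sequence or promoter table was at hand, so no motif search was made. Depth per library limits the precision of genes at a few CPM.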

Additional observations from a re-analysis of the deposited data

How the results depend on the processing

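The alternatives were other scalings, no filter on low counts, DESeq2, no replicate block, all libraries of an experiment in 1 fit, and 1 replicate left out. Of 143 recomputed counts of called members, 130 stayed within 1.5 times the reported count. Most of the 143 were for glucose or insulin comparisons with 0 members called, where a recomputed 0 was taken as unchanged. The 130 therefore does not measure how steady the calls between cell types were. At 5 mM glucose the count of members called between cell types was 19 with library totals alone, 22 with DESeq2, 25 in 1 fit of all libraries, and 6 to 18 with 1 replicate left out, against 10. At 50 mM it was 0 to 24 with 1 replicate left out, against 21. In the fits without a replicate block the counts were 16 at 5 mM and 12 at 50 mM, and leaving out the block changed no other count of called members by over 1.5 times. With 1 replicate left out, the count was 0 to 7 for 10 ng/mL insulin in epithelial cells, 0 to 1 for 1 ng/mL in stromal cells and 0 to 1 for the interaction at 10 ng/mL, against 0 each. DESeq2 called 1 member for glucose in stromal cells. Library totals alone moved the median of all genes between cell types by 0.078 to 0.218 on the log2 scale. On that scaling SC5D was at 0.016 in the vehicle group and FASN at 0.0052 at 10 ng/mL insulin in epithelial cells. Signs also turned with 1 replicate left out. For glucose, FASN ran from -0.53 to 0.059 and INSIG1 from -0.33 to 0.13 in epithelial cells, and INSIG1 from -0.084 to 0.67 in stromal cells. For 10 ng/mL insulin in epithelial cells, FASN ran from -0.070 to 0.069, HMGCS1 from -0.26 to 0.035, SCD from -0.11 to 0.015, SQLE from -0.13 to 0.0022 and SREBF1 from -0.035 to 0.016. SC5D between cell types with vehicle ran from -0.15 to 0.0063. ELOVL5 lost its call in the vehicle group without replicate 1 (adjusted p = 0.0511), and GPAM lost its call without replicate 1 or 3. The causes were not tested. With 1 replicate left out a fit of 6 libraries keeps 4.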
